A study of Drosophila melanogaster with 3 samples.

Results

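Intergenic Bdp1 peaks are the optimal peaks that lie away from annotated genes: they overlap no window of 100 bp on either side of an annotated gene's 5' end, and their summit lies in no annotated gene. Transposable elements were not counted as genes. The rule found 380 members and left 2826 other optimal peaks, so the members are 11.9% of all (95% exact Clopper-Pearson interval 10.8 to 13.0). The interval, like all intervals here, covers counting error over peaks only. The others lay at the 5' end of a protein-coding gene (1435), in an intron (980), at the 5' end of a gene transcribed by RNA polymerase III (236), in an exon (115) or at another 5' end (60).

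Bdp1 belongs to TFIIIB, a complex that recruits RNA polymerase III (Pol III) to the start of its genes. At tRNA genes, TFIIIC first binds the A box and the B box inside the gene and then sets TFIIIB upstream of the start. Pol III ends transcription at runs of T. At U6 and related snRNA genes in flies, the proximal sequence element upstream of the gene is bound by SNAPc and takes the place of the internal boxes.

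The samples were 3 biological replicates of 1 group: whole Drosophila melanogaster embryos of mixed sex, aged 0 to 24 h, from a stable transgenic line in which CG9305 (Bdp1) carries GFP at its C-terminus. Chromatin was sonicated to 200 to 800 bp and precipitated with an antibody against GFP. The peaks therefore pool all embryonic cell types and ages in that span, and they report the tagged protein. There was no second group, so the comparisons below are between classes of peaks within each replicate. For each replicate the authors deposited a relaxed list of 30000 peaks, called against a control alignment. A peak's relative signal is the signal of the strongest relaxed peak over its summit, over the median for that replicate of all optimal peaks.

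The first set of sequences shows 3 of the strongest members, because they bear on whether a Pol III promoter element stands at the summit. Each run covers the summit and 100 bp on each side, on the plus strand of dm6. Capitals mark every match, on either strand, to the listed motifs, and not the word CACTG, which was added later. In the window at chrX:5613154-5613354 the matches to listed motifs were T runs alone. The window at chr3R:16222404-16222604 had an A box match and a T run, and that at chr3L:5869675-5869875 had A box matches, an E box and a CGATA element. No B box match stood in any of the 3 windows.
near CG34435: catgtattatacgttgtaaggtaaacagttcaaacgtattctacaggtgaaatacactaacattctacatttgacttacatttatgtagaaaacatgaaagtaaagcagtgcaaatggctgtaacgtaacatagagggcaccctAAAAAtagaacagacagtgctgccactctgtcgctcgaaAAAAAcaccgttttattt
near lncRNA:CR45643: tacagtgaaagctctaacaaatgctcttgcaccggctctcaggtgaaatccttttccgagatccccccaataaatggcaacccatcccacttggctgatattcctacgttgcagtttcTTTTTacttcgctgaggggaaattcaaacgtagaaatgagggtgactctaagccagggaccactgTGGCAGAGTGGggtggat
near CG5568: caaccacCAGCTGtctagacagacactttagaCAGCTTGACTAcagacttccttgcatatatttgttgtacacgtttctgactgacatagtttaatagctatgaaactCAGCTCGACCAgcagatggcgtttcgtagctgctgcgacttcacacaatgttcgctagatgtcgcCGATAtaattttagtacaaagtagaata

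A second set shows windows rich in the word CACTG, in capitals on either strand (read as CAGTG on the printed strand where it lies on the other). The word was picked after the member windows had been read, and its counts are given further on. The window at chr2L:3832421-3832621 lies between slp1 and slp2, a pair of forkhead genes of embryonic segmentation, and holds 4 copies. The window at chr3L:8153323-8153523 also holds 4, and that at chr3R:16497462-16497662 holds 3.
near slp2: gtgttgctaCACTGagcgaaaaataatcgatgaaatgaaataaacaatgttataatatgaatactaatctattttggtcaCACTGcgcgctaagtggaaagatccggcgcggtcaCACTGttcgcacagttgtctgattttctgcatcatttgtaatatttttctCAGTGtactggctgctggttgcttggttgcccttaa
near CG13676: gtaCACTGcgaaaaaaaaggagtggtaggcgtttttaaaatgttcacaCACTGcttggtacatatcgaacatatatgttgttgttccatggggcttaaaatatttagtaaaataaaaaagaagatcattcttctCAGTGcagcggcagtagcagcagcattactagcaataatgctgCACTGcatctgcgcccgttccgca
near Gr89a: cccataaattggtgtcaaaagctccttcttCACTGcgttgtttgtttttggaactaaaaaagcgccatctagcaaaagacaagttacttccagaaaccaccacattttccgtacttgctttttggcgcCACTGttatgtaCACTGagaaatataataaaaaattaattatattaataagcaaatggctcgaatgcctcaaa

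The last sequence is the 1 member whose surroundings match an annotated Pol III gene. It covers chr3L:13279681-13279881, and capitals mark the 54 bases at chr3L:13279775-13279828 that are 100% identical to bases 29 to 82 of tRNA:Leu-AAG-1-1, a gene of 82 bases. The matched stretch is the 3' part of the tRNA, which holds the B box (core GTTCGANNC), and it begins 44 bp and ends 97 bp from the summit. The 5' part of the gene, where the A box lies, was not in the match.
near lncRNA:CR43146: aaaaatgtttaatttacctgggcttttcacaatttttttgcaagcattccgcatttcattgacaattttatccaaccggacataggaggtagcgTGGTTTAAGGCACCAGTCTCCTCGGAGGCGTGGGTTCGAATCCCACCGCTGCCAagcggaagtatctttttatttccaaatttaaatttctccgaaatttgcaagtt

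That peak, chr3L:13279702-13279857, had a relative signal of 2.08 in replicate 1, 2.62 in replicate 2 and 1.73 in replicate 3 (2.14 ± 0.45, SD, n = 3) and ranked 449 among all optimal peaks. It was above the optimal median in every replicate, and it was the only 1 of the 380 with a blastn match of at least 30 bp to any of 400 annotated Pol III genes.

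The strongest member, chr2R:9541479-9542041, stood between the converging ends of brp, which encodes the Bruchpilot protein of the presynaptic active zone, and CG1888. Its relative signal was 45.2, 45.1 and 61.6 in replicates 1, 2 and 3 (50.6 ± 9.49, SD, n = 3). The peak was the widest member at 563 bp, wider than the gap of 381 bp between the genes, and its summit lay 5187 bp from the nearest 5' end. The second, chrX:5613009-5613502, lay between Vsx1, a homeobox gene of the visual system, and CG34435, whose ends also converge. Its relative signal was 10.7, 11.1 and 13.5 (11.8 ± 1.52, SD, n = 3). These were the 2 members among the 100 strongest optimal peaks, and no replicate value of any other member reached either.

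The third, chr2R:13035182-13035488, lay between Su(z)2, a Polycomb-group gene, and CG13323, with relative signals of 5.38, 8.11 and 5.40 in replicates 1 to 3. The fourth, chr3R:16222367-16222633, stood 891 bp upstream of lncRNA:CR45643, with values of 3.99, 6.47 and 4.23. The fifth, chr3L:5869649-5869953, lay between vn, which encodes the EGF receptor ligand Vein, and CG5568, with 4.10, 5.09 and 5.29. The peak near CG13323 was the highest of these 3 in each replicate, and the order of the other two was not the same in every replicate. A peak at chr2R:23978436-23978694 stood 264 bp upstream of Sox14, a transcription factor gene of the ecdysone response, with 3.29, 5.88 and 3.67. Another at chr2R:22802819-22803105 lay between blw, the ATP synthase alpha subunit gene, and CycB, the mitotic cyclin B gene, with 4.32, 5.29 and 4.11. After the first 2 members the fall was steep. Of 374 members with a value in all replicates, 3 averaged at least 5 times the optimal median, 47 at least 2 times, and 147 reached the median itself. The shares of other classes at these cuts are not given, so the counts describe the members alone.

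**Figure D1:**
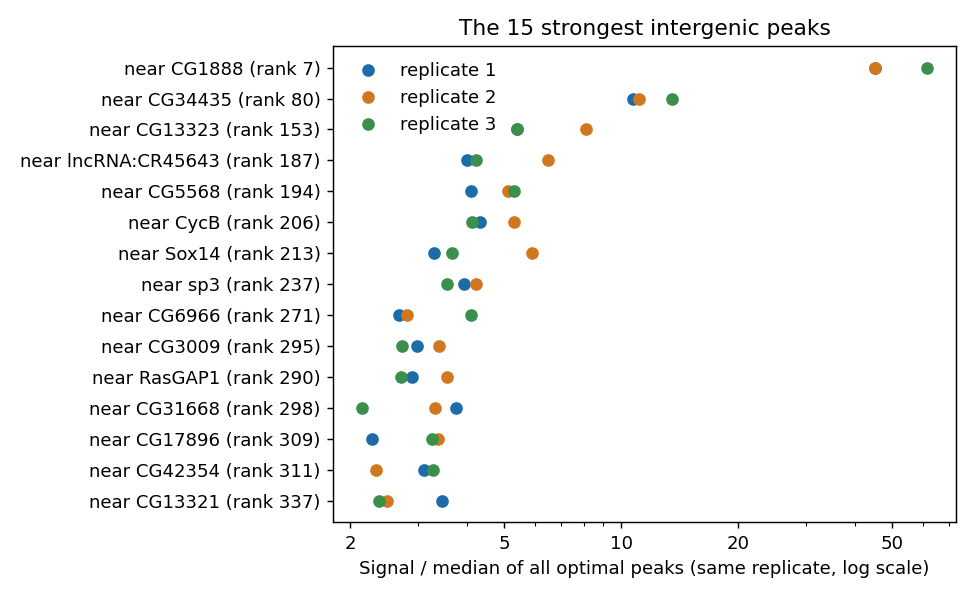
Relative signal (log axis) of the 15 intergenic peaks of highest mean rank, 1 row a peak, named by the gene of the nearest 5' end with its rank among the optimal peaks, and 1 point a replicate. The first 2 peaks stand apart from the others in every replicate.

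The remaining members of the first 15 lay near sp3, CG6966, CG3009, RasGAP1, CG31668, CG17896, CG42354 and CG13321, with mean relative signals from 2.77 to 3.90. Of these, the peak at chr3R:21520247-21520485 stood 549 bp upstream of sp3 and gave 3.92, 4.22 and 3.56. RasGAP1 encodes a Ras GTPase-activating protein, and the peak 693 bp upstream of it gave 2.88, 3.55 and 2.71. The order among these neighbours was not the same in the 3 replicates.

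At the other end of the list, the 3 members of lowest pooled signal lay near lncRNA:CR42794, lncRNA:CR44230 and CG7320. Near CG7320 the relative signal was 0.77, 0.75 and 0.25, a spread that took the peak from rank 2436 of the relaxed list in replicate 1 to 20723 in replicate 3. Over members with 3 values, the median SD was 27.8% of the mean. Every member had a relaxed peak over its summit in replicate 1, 376 had one in replicate 2 and 378 in replicate 3. Such cover was not particular to the members. Of the 980 intron peaks, 961, 963 and 968 had a relaxed peak over the summit in replicates 1 to 3. Of the 1435 protein-coding 5' end peaks, 1387, 1390 and 1425 had one. Of the members, 8 took a replicate's value from the same relaxed peak as another member, and 1 shared its interval with another optimal peak of a different summit.

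The median relative signal of intergenic peaks was 0.94 in replicate 1, 0.97 in replicate 2 and 0.83 in replicate 3. Intron peaks gave 0.94, 1.00 and 0.88, and protein-coding 5' end peaks 0.98, 0.91 and 1.05. Peaks at Pol III 5' ends gave 8.14, 7.92 and 6.51. The interquartile range of the members, 0.68 to 1.37 in replicate 1, overlapped those of introns and protein-coding 5' ends.

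**Figure D2:**
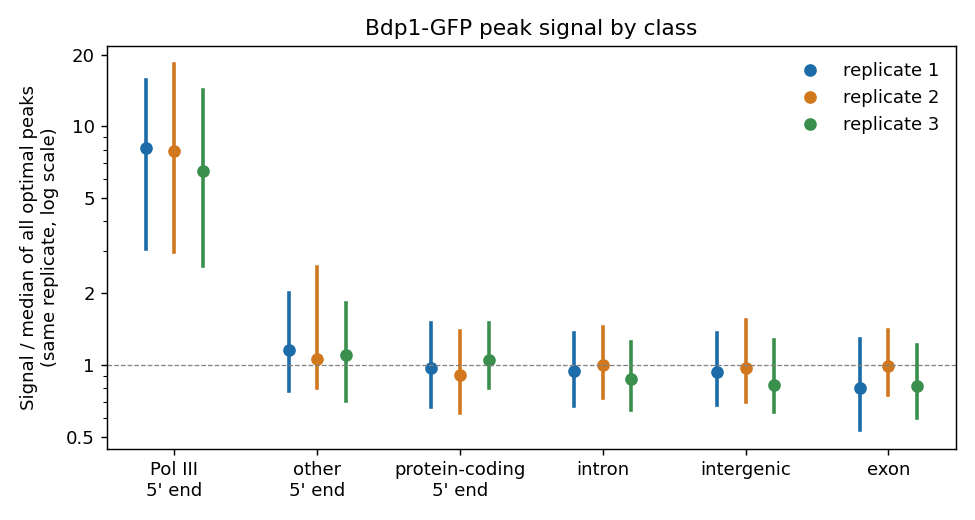
Relative signal (log axis) by class of optimal peak, with 1 point for the median in each replicate and a line for the interquartile range. Intergenic, intron and protein-coding 5' end peaks lie around 1, and peaks at Pol III 5' ends lie above them in all 3 replicates.

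The difference in median log2 signal between intergenic and all other optimal peaks was -0.11, -0.05 and -0.31 in replicates 1 to 3 (mean -0.16 ± 0.14, SD, n = 3). Against all these others the members were lower in 3 of 3 replicates. The exact two-sided sign-flip permutation test gave p = 0.25, the smallest p that 3 replicates allow. The mean was -0.08 without replicate 3. It was also -0.08 without the Pol III 5' end peaks among the others. There the members were not lower in every replicate (exact permutation p = 0.5). Against intron peaks the difference was -0.01, -0.04 and -0.08 (mean -0.04 ± 0.04, SD, n = 3; lower in 3 of 3; exact permutation p = 0.25), and without replicate 3 its mean was -0.023. Against protein-coding 5' end peaks it was -0.06, 0.09 and -0.35 (mean -0.11 ± 0.22, SD, n = 3; lower in 2 of 3; exact permutation p = 0.75), and without replicate 3 its mean turned to 0.014. Adjusted by Benjamini-Hochberg over these 3 exact permutation tests, the p-values were 0.375, 0.375 and 0.75. No difference passed the threshold of 0.05, which this design cannot reach.

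Each replicate was cut to its strongest relaxed peaks, as many as there are optimal peaks. Among these, 195 of 380 members were found in all 3 replicates, 51.3% (46.2 to 56.4), beside 56.5% of all optimal peaks, 54.2% of intron peaks and 53.4% of protein-coding 5' end peaks. At Pol III 5' ends the share was 97.5%. A further 122 members were found in 2 replicates, 60 in 1 and 3 in none. The share followed the pooled signal: 94 of the 95 strongest members were found in all 3 replicates, then 73, 23 and 5 of the next groups of 95. Pooled signal and replicate lists come from the same reads. Taken on its own, each replicate placed 436, 387 and 341 of those strongest peaks in the intergenic class (12.1% ± 1.48, SD, n = 3).

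In the pooled relaxed list, the intergenic class made up 2 of the 100 strongest peaks, 3 of the next 100 and 13.0% of the 200 after those. It then stayed between 11.5% and 12.8% down to the end of the optimal list and reached 18.8% in ranks 12801 to 30000. Of all tiles of 396 bp cut from the 7 chromosomes, 29.1% met the same rule. Pol III 5' ends ran the other way, from 88.0% of the first 100 ranks to 0.809% from rank 1601 to the end of the optimal list.

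The summits lay at a median of 1787 bp from the nearest 5' end (interquartile range 585 to 4560, extremes 143 and 36620). The intergenic tiles of the genome lay at a median of 5943 bp. Within 500 bp of a 5' end stood 21.1% of members and 3.45% of tiles, and more than 10000 bp away stood 9.21% of members and 36.4% of tiles. The tiles include chromosome Y, where there were 0 optimal peaks, and 10.3% of them were centred in transposable elements. The part of such stretches in these shares was not tested. The rule itself keeps peaks off the window of 100 bp around each 5' end. Of the summits, 70.8% (65.9 to 75.3) lay upstream of the nearest 5' end, beside 59.3% of tiles, and of the 80 summits within 500 bp, 79 were upstream. Within that distance, 93.3% of tiles were upstream too. The upstream shares of members and tiles were 72.7% and 71.8% from 500 to 2000 bp, and 61.1% and 57.8% from 2000 to 5000 bp. They were 57.1% and 53.2% from 5000 to 10000 bp, and 45.7% and 53.7% farther away.

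The members closest to 5' ends had the highest median. The 80 members within 500 bp had a median relative signal of 1.28, 1.13 and 1.00 in replicates 1 to 3 (1.14 ± 0.14, SD, n = 3). The 35 members more than 10000 bp away had 0.83, 0.76 and 0.68 (0.76 ± 0.08, SD, n = 3). The nearest group exceeded the farthest in each replicate. This split was chosen after its values were seen and was not tested. Of the nearest group 52 of 80 were found in all 3 replicates, and of the farthest 10 of 35.

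**Figure D3:**
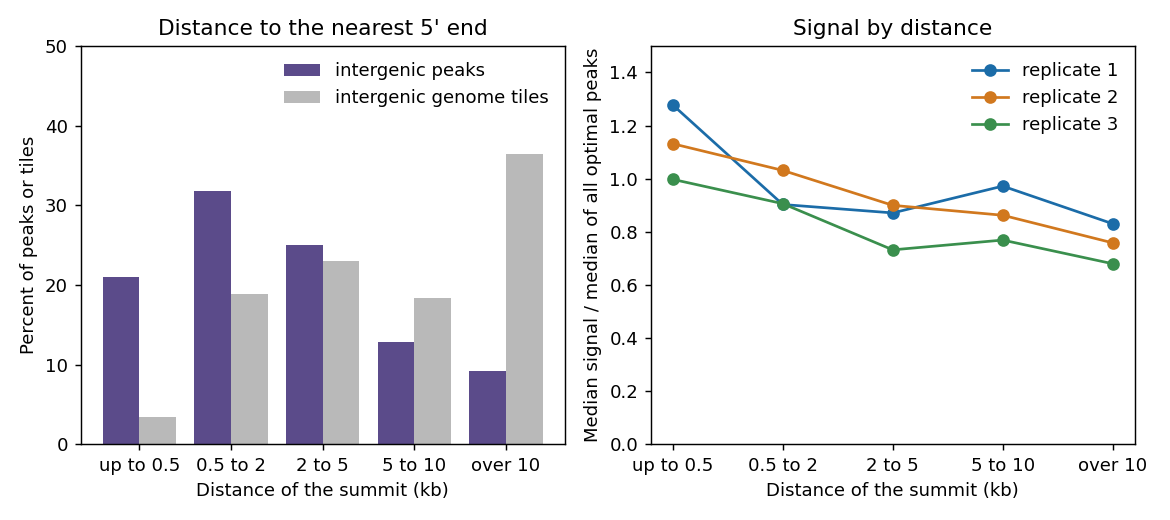
Left, the percent of intergenic peaks and of intergenic genome tiles in each range of distance (kb) to the nearest 5' end. Right, the median relative signal of the peaks in each range, 1 line a replicate. Peaks crowd the ranges up to 2 kb, and their signal is lowest beyond 10 kb in every replicate.

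Flanking genes pointed away from each other at 116 members, 30.5% (25.9 to 35.4) beside 20.4% of the tiles examined. They pointed the same way at 199 (52.4% beside 50.9%) and toward each other at 65, 17.1% (13.5 to 21.3) beside 25.3%. The tiles were not matched to the members for distance to a 5' end. The part of distance in these shares was not tested. The first 3 members by rank all lay between converging genes. The nearest 5' end was that of a protein-coding gene at 263 members and of another non-coding RNA at 106. A Pol III gene was nearest at 9 members, 2.37% (1.09 to 4.45) beside 0.902% of tiles.

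All 9 of those Pol III genes were tRNA genes, at distances from 625 bp (tRNA:Leu-CAA-2-2) to 13944 bp (tRNA:Ile-TAT-1-2). The strongest of these members lay 2739 bp from tRNA:Arg-CCT-1-2, with relative signals of 1.22, 2.01 and 1.43. For tRNA:Ile-TAT-1-2, 3 members had it as nearest, at 1194, 10982 and 13944 bp. The closest of the 3 gave 0.92, 1.06 and 0.98, near the optimal median in each replicate. The middle one ranged from 0.37 to 1.54. A single member had a snoRNA gene nearest, snoRNA:Psi28S-3436b at 1101 bp, with 0.89, 0.94 and 0.97, and none had an snRNA or miRNA gene nearest.

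Developmental and ribosomal protein gene lists were nearest to few members, at shares set here beside those of the tiles. None of the 8 Hox genes, which set segment identity, was nearest to a member (0 of 380, which by the rule of 3 counts allows a share of up to 0.789%, beside 0.174% of tiles). Of 24 patterning genes, 23 were found by name and 3 were nearest to 1 member each (0.789% of members, 0.714% of tiles). The member near slp2, chr2L:3832396-3832620, gave 2.42, 2.53 and 2.25 (2.40 ± 0.14, SD, n = 3). The members near ftz, a pair-rule gene, and odd, a zinc finger gene of the same class, had means of 0.62 and 0.53. Of 93 genes with cytoplasmic ribosomal protein names, RpS23 and RpS15Aa were nearest to 1 member each, 0.526% of members beside 0.879% of tiles.

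Members lay on every chromosome examined except Y, where there were 0 optimal peaks of any class. Their density per Mb of intergenic tiles was 12.9 on 2L (exact Poisson interval 10.4 to 15.8), 11.5 on 3L, 10.5 on 3R, 7.90 on X (5.71 to 10.6) and 7.01 on 2R (5.27 to 9.15). Members made up 15.1% of all optimal peaks on 2L, 16.2% on 3L, 10.5% on 3R, 8.13% on X and 8.74% on 2R. On chromosome 4, with 5 optimal peaks, there were 3 members. The strongest, 3924 bp upstream of zfh2, a zinc finger homeodomain gene, gave 1.88, 3.07 and 2.19, and the others lay near lncRNA:CR43437 and fuss. Another member stood within 5000 bp of 96 members (25.3%), a share not given for the other classes. The largest such group, chr3L:11415315-11422615, lay upstream of CG7560 and held 6 members with 6905 bp between the outermost summits. Of these 6, 4 were found in all 3 replicates. The highest relative signals in the group were 2.02, 2.68 and 1.65. Its members with summits at 11418372 and 11418575 took their values in replicates 1 and 3 from the same relaxed peaks. The narrowest members were 2 of 99 bp. The peak at chr3R:12403089-12403187 gave 2.59, 1.91 and 1.84, and that at chr3R:5108177-5108275 gave 1.46, 2.18 and 1.21.

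Annotated transposable elements held the summit of 2 members, 0.526% (0.0638 to 1.89), beside 10.3% of intergenic tiles. The low share was not particular to the members. It was 0.102% of intron peaks (1 of 980) and 0.0697% of protein-coding 5' end peaks (1 of 1435). In exon, other 5' end and Pol III 5' end peaks it was 0. How many reads of repeated sequence the authors kept is not given in the sources used here, and its part in these shares was not tested. The window of 1 of the 2 members, near Cnx99A, matched the genome in 69 places at 90% identity over at least 100 bp. It gave 1.26, 0.51 and 0.30 in replicates 1 to 3. Of the 380 windows, 377 had a single such match.

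Pol III promoter elements were found at the members at shares whose intervals included those of intergenic sequence at large. The B box core was found in 1.58% of the summit windows (6 of 380, 0.582 to 3.40), in 1.32% of 100765 intergenic genome windows and in 35.6% of windows at Pol III 5' ends. The A box, searched by its consensus, was found in 7.37% (4.95 to 10.5), in 6.64% and in 69.9%. The core AATTCCCAA of the snRNA proximal element was found in 2 members, 0.526%, beside 0.373% of genome windows. The 6 members with a B box core included the tRNA:Leu-AAG match, a peak 1898 bp upstream of Atf3 and the peak 1194 bp from tRNA:Ile-TAT-1-2. Searches covered both strands, and an A box match can overlap other matches.

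Runs of 5 T were found in 80.5% of members (76.2 to 84.4), beside 68.4% of genome windows, 77.6% of intron peaks, 77.9% of protein-coding 5' end peaks and 69.9% of Pol III 5' ends. The TATA box word TATAAA was found in 29.7% of members (25.2 to 34.6), beside 23.5% of genome windows, 29.6% of intron peaks and 30.5% of protein-coding 5' end peaks. The member windows were also poorer in G and C, with a median of 36.8% beside 40.8% of genome windows, and the part of that in the T runs and TATA words was not tested. Intron peaks had the same median, 36.8%.

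The DRE word TATCGATA was found in 0.263% of members, 8.29% of protein-coding 5' end peaks and 0.512% of genome windows. Motif 1 (GGTCACACT) was found in 0.263%, 4.46% and 0.0943%. The 1 member with motif 1 was the slp2 window printed above, which holds the word at 2 places, each overlapping a CACTG copy. The BEAF element CGATA was found in 24.2% of members, beside 20.2% of genome windows, 42.0% of protein-coding 5' end peaks and 39.3% of 13968 protein-coding promoters. The E box CAGCTG was found in 5.0% of members, 15.9% of protein-coding 5' end peaks and 6.63% of genome windows. CACGTG was found in 2.11%, 3.48% and 2.21%. GAGAGAG, the GAGA factor word, was found in 3.42% of members, 3.90% of protein-coding 5' end peaks and 2.26% of genome windows. CACACACA was found in 2.89%, 2.51% and 3.75%, and within 200 bp of the summit it was instead more frequent in members than in genome windows (10.8% and 7.24%). CAGGTAG, the word of the early activator Zelda, was found in 1.05%, 0.627% and 0.909%.

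**Figure D4:**
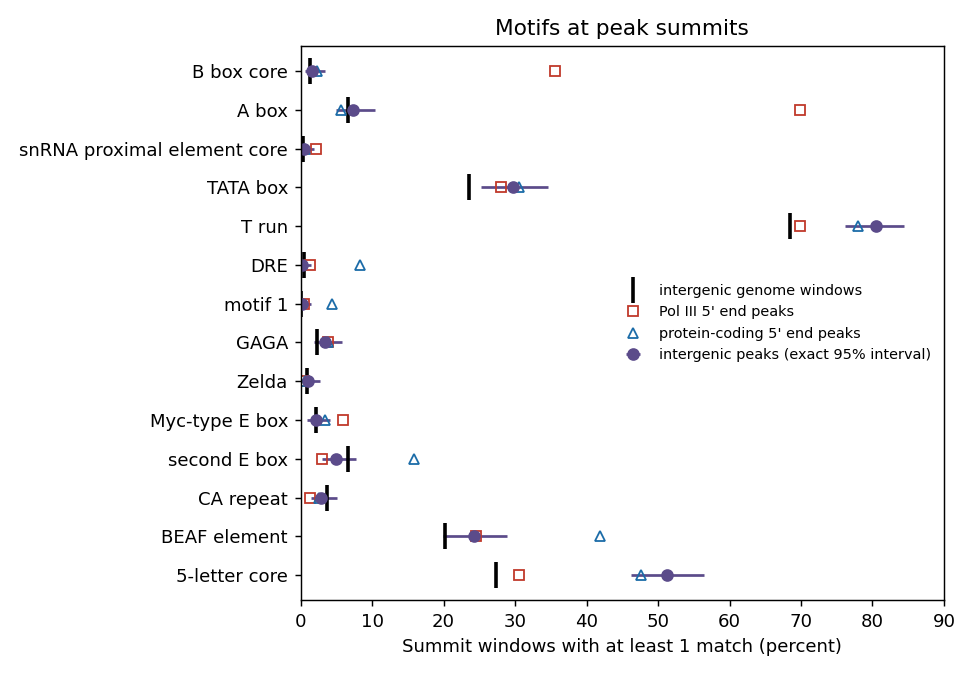
Percent of summit windows (100 bp on each side) with at least 1 match on either strand. Circles with exact 95% intervals are intergenic peaks, bars intergenic genome windows, squares Pol III 5' end peaks and triangles protein-coding 5' end peaks. The A box and the B box core lie with the genome windows, and the core word lies above them.

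A word outside the list was more frequent in these windows. Words of 7 letters found in at least 25 member windows numbered 441. The 1 with the highest ratio to genome windows was CAGTGTA, in 12.1% of members and 1.93% of genome windows. CACTG or its complement stood in 6 of the first 10 and 9 of the first 20. These words can overlap on the same copy, so they are not separate finds, and no share over all 441 is given. CACTG itself was found in 51.3% of members (46.2 to 56.4), beside 27.4% of genome windows and 37.4% of protein-coding promoters. It was not particular to the members: intron peaks had it in 53.8%, exon peaks in 59.1% and protein-coding 5' end peaks in 47.6%. Pol III 5' end peaks had it in 30.5%. At least 2 copies stood in 16.8% of members and 4.75% of genome windows. Since the word was chosen on these windows, its share there is a description with no test.

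The strongest intergenic peaks of a replicate that touch no optimal peak did not enter that choice. Of them, 58 of 129 in replicate 1 held CACTG, 42 of 88 in replicate 2 and 23 of 52 in replicate 3, which are 45.0%, 47.7% and 44.2%. In the pooled relaxed list the share was 51.8% in ranks 3207 to 6400, 41.7% in ranks 6401 to 12800 and 37.7% in ranks 12801 to 30000. Members with the word had a median relative signal of 0.94, 1.00 and 0.82 and those without it 0.93, 0.95 and 0.86, so neither group was higher in all 3 replicates.

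**Figure D5:**
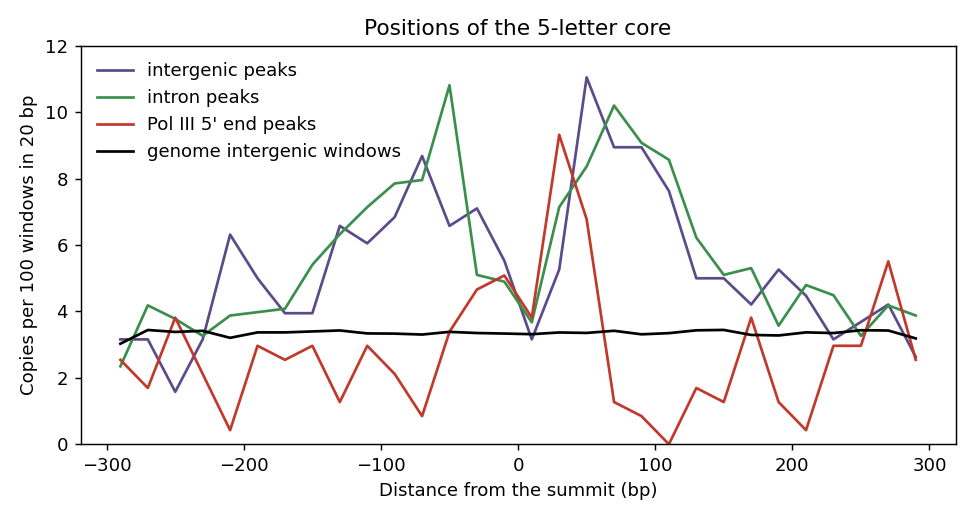
Copies of CACTG on either strand per 100 windows, in bins of 20 bp by distance from the summit, for intergenic, intron and Pol III 5' end peaks and for intergenic genome windows. Both intergenic and intron peaks dip at the summit and rise on its flanks, and the genome line is flat.

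In intergenic peaks the copies were fewer at the summit than on its flanks. In the 20 bp from the summit onward there were 3.16 copies per 100 member windows (12 copies), close to the genome windows. In the 20 bp before the summit there were 5.53, above the 3.33 of genome windows. The highest bins on the flanks were 11.1 from 40 bp and 8.68 from -80 bp. Intron peaks gave 3.67 from the summit onward, 4.90 in the bin before it and 8.37 from 40 bp. Their highest bins on the flanks were 10.2 from 60 bp and 10.8 from -60 bp. Not every class had this dip: in the 20 bp from the summit onward, protein-coding 5' end peaks had 7.53 copies and exon peaks 10.4.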

How the data were processed

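ChIP-seq of Bdp1-GFP was run on 3 replicates, which form 1 group. The signal values used are those the authors deposited on dm6: 1 relaxed list for each replicate, 1 for the pooled replicates and the optimal list thresholded by irreproducible discovery rate, with a control alignment for the relaxed lists, per the deposited text. The aligner, caller, filters and cutoff were not given in the sources used here. Read totals are unknown. No source states whether signal is on 1 scale across lists, so it was compared within a list or as relative signal. Sample columns with no matching sample numbered 0. The dm3 lists were not used.

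Genes came from Ensembl release 115 and sequence from the RefSeq copy of the same assembly, on 7 chromosomes. Coordinates are 1-based dm6. A replicate value is the strongest relaxed peak over the summit; a peak was found in a replicate when 1 of its strongest relaxed peaks, as many as there are optimal peaks, overlapped it by at least 1 bp. Replicate differences were tested by exact sign-flip permutation. Genome tiles had the median optimal peak width of 396 bp, and 1 in 5 of the intergenic tiles (20153) served for gene orientation. Motifs were searched within 100 bp of the summit. Matches to Pol III genes used blastn 2.17.0 (at least 30 bp, E at most 0.001), and the rest Python 3.11.15, numpy 2.4.6, pandas 2.3.3, scipy 1.17.1 and matplotlib 3.10.9. The class, motif and sign-flip steps were tested on simulated data.

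Members, lists and tests were chosen with earlier results of these data known. Peaks named were the 15 of highest mean rank, the 3 of lowest pooled signal, those matching a Pol III gene, those on 4 and Y, those with a small RNA gene nearest, up to 10 near listed genes, and the widest and narrowest (both of a tie). Others named were chosen after their values were seen, as were the word search, the split by distance and the groups of neighbours. Alternatives were other 5' end windows, gene rules, overlap rules, numbers of peaks, summit windows, the 1603 strongest optimal peaks and each replicate left out. Sequence on 2R was not printed. P-values over these replicates measure the spread between these samples.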

Additional observations from a re-analysis of the deposited data

How the results depend on the processing

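Of 75 alternatives, 43 kept each result's direction and its side of the threshold or its range, 31 moved it and 1 turned it. The mean log2 difference from protein-coding 5' end peaks turned from -0.11 to 0.014 without replicate 3, and leaving out each replicate in turn gave -0.20 to 0.014. The mean differences from all other peaks and from intron peaks stayed below 0 under their alternatives. They were -0.21 to -0.08 and -0.059 to -0.023 with each replicate left out in turn. The mean difference from other peaks was -0.08 without Pol III 5' ends and -0.12 among the 1603 strongest optimal peaks. In both of these settings the exact permutation p was 0.5, so the members were not lower in every replicate. The number of members was 176 among the 1603 strongest optimal peaks and between 275 and 380 under the other rules. The share found in all 3 replicates was 25.8% with 1603 peaks per replicate and 99.2% with every relaxed peak, where all optimal peaks gave 32.1% and 96.9%. It was 61.1%, 62.1% and 62.9% in both others without replicate 1, 2 or 3, where all optimal peaks gave 67.8%, 67.4% and 63.7%. The median distance was 2635 bp to protein-coding 5' ends and 1304 bp among the 1603 strongest, and 1795 to 1816 bp with the replicates' own summits and 1 replicate left out. A longer window can only hold more matches. Within 50 bp of the summit the motif shares were B box core 0.526%, A box 2.63%, TATA box 16.6%, T run 52.1%, GAGA 1.05%, E box CACGTG 0.789%, E box CAGCTG 2.11%, CA repeat 1.05%, BEAF element 13.4% and CACTG 25.3%. Within 200 bp they were B box core 4.21%, A box 14.5%, TATA box 46.6%, T run 95%, GAGA 9.47%, E box CACGTG 4.47%, E box CAGCTG 11.3%, CA repeat 10.8%, BEAF element 39.5% and CACTG 68.7%. Among the 1603 strongest, 1 share moved, that of the TATA box 24.4%. In genome windows of 50 and 200 bp on each side, CACTG was found in 14.7% and 46.8%, the B box core in 0.613% and 2.63%, GAGA in 1.13% and 4.45% and the CA repeat in 1.93% and 7.24%, so the CA repeat was below the genome share in the shorter windows and above it in the longest. No paired analysis was possible because all samples form 1 group, so no groups share replicate numbers; the differences between classes of peaks were taken within each replicate. Read depth is not known, so how depth limits the weaker members was not tested, and 3 replicates cannot give an exact p below 0.25.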
